A study of Homo sapiens with 29 samples.

Results

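Midkine (MDK), platelet-derived growth factor D (PDGFD), the chemokine CXCL12, cerebellin 2 (CBLN2), ephrin-B3 (EFNB3), microfibril-associated protein 4 (MFAP4) and proteoglycan 4 (PRG4) are 7 ligand or matrix genes among the 66025 entries of the count table. They were chosen by their measured levels, which differed between conditioned media in these same libraries, so every difference between media for these 7 genes is given as a description, without a test. Each symbol matched 1 entry, and all 7 were among the 21259 entries that passed the filter on low counts. The cells were EndoC-βH1, an insulin-producing line derived from human β cells, kept for 10 days in medium that HEK293 cells, a human embryonic kidney line, had conditioned for 3 hours, and all groups received such medium. In 9 libraries the conditioning cells stably carried an empty vector (EV), in 10 they overexpressed wild-type CEL (WT) and in the other 10 a mutant CEL (MUT) whose mutation the labels do not name. Carboxyl ester lipase, the product of CEL, is secreted by the acinar pancreas to digest fat, and its mutations cause an inherited diabetes. The labels give 3 batches, of which the first held 3 EV, 4 WT and 4 MUT libraries and the others 3 libraries of each medium. The labels do not say whether libraries of the same batch and medium were separate cultures, so the p-values measure only the spread between libraries, which may be technical.

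MDK is a heparin-binding growth factor that acts through receptors such as PTPRZ1, LRP1, syndecans and integrins. PDGFD is secreted as a latent growth factor, and proteases release the part that binds the receptor PDGFRB. CXCL12 attracts cells that carry the receptor CXCR4 and is also bound by ACKR3. CBLN2 is a secreted synaptic organiser of the cerebellin family, and EFNB3 is a ligand of Eph receptors that spans the membrane rather than being secreted. MFAP4 is a glycoprotein of microfibrils and elastic fibres, and PRG4, also called lubricin, is a lubricating glycoprotein of joint fluid. Because these are bulk samples, a lower level can mean fewer cells that express a gene or less of its RNA per cell, and these cannot be told apart.

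Levels are given as CPM, counts divided by the size of the library on a common scale and adjusted by the trimmed mean of M values (TMM), which correct for library size and composition but not for gene length. Library totals ran from 26.2 to 40.2 M estimated counts. All 15 β-cell markers examined were above 1 CPM. Of 12 mesenchymal markers 2 were above 1 CPM and 6 (COL3A1, COL6A3, FAP, LUM, PDGFRB and THY1) were under 0.1 CPM, 5 of 8 endothelial markers, 5 of 8 acinar markers, 2 of 7 ductal markers and 8 of 12 HEK293 markers were also under 0.1 CPM. In these 4 lists 1, 2, 2 and 3 markers were above 1 CPM, with means of 3.74 CPM for ESAM, 32.0 CPM for CPA1, 45.8 CPM for KRT19, and 12.8, 9.43 and 7.94 CPM for LIN28B, PRAME and PAX8. CEL itself had a median of 3.40 CPM in EV libraries, 3.84 in WT libraries and 4.01 in MUT libraries, and the ranges of the 3 media overlapped. CEL was overexpressed in the HEK293 cells and not in the sequenced cells, so its level does not check the labels. The median level of INS, the insulin gene, was 12242 CPM with EV medium, 9520 CPM with WT medium and 9887 CPM with MUT medium, again with overlapping ranges. These medians pool the batches, and the highest libraries stood in the other order, at 13439 CPM with EV, 18235 with WT and 19514 with MUT medium.

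Start regions are shown here for the members with a reference window, so that genes of unlike pattern can be set side by side. RefSeq windows on GRCh38.p14, from 250 bases before to 50 bases after a start site, were found for PDGFD, CXCL12, CBLN2 and PRG4, which are 4 of the 7 genes. PDGFD, CBLN2 and PRG4 were highest in MUT medium in batch 2, and CXCL12 was highest in WT medium. The windows lie at chr11:104164098-104164397 on the reverse strand for PDGFD, chr18:72544293-72544592 on the reverse strand for CBLN2, chr1:186296023-186296322 on the forward strand for PRG4 and chr10:44385048-44385347 on the reverse strand for CXCL12. Each is written 5′ to 3′ on the gene's strand. Capitals mark matches to a GC box (GGGCGG) or a CCAAT box (CCAAT) on either strand.
PDGFD: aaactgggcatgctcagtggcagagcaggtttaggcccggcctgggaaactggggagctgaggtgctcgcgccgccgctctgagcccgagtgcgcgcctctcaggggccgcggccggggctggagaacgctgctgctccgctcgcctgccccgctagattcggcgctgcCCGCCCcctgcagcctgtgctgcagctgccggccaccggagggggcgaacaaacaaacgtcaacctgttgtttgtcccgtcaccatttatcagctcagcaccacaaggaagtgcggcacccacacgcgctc
CBLN2: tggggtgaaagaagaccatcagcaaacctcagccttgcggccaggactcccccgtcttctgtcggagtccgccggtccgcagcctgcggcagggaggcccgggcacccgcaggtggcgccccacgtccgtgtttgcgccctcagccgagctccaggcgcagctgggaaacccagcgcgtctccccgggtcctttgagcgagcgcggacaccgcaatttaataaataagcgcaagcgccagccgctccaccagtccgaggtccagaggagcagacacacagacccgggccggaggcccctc
PRG4: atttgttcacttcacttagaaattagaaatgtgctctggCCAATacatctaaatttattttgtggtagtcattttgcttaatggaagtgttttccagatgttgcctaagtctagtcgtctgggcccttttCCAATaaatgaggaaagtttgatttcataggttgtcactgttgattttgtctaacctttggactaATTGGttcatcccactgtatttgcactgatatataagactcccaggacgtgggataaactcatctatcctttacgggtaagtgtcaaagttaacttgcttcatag
CXCL12: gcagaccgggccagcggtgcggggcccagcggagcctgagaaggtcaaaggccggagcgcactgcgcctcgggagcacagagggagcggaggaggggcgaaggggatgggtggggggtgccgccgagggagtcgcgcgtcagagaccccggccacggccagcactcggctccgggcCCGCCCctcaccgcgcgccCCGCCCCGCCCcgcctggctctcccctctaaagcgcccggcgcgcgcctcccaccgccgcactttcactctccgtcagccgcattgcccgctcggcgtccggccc

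The TATA box (TATAAA) and the E-box motif (CACGTG) were searched in the same way on both strands. Neither was found as these exact letters in any of the 4 windows. Related stretches, such as tatataag in the PRG4 window, were not counted. CXCL12 had 3 GC boxes, of which the last 2 share a base, PDGFD had 1 GC box, PRG4 had 3 CCAAT boxes and CBLN2 had no match. Of 35116 RefSeq windows, 45% held a GC box, 34.6% a CCAAT box, 11.5% a TATA box and 7.26% an E-box. The GC content was 67.3% for PDGFD, 67.7% for CBLN2, 77% for CXCL12 and 37.0% for PRG4, against a median of 58.7% over all windows. The PRG4 window was among the most AT-rich, since 6.54% of windows had a lower GC content. None of the searched motifs was present in all 3 of the windows whose genes were highest in MUT medium. A second RefSeq start of PRG4 gave a window that also held 3 CCAAT matches.

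Each gene was described in turn by its level in every library. The plot of levels by batch and medium shows all 29 libraries of each gene.

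**Figure D1:**
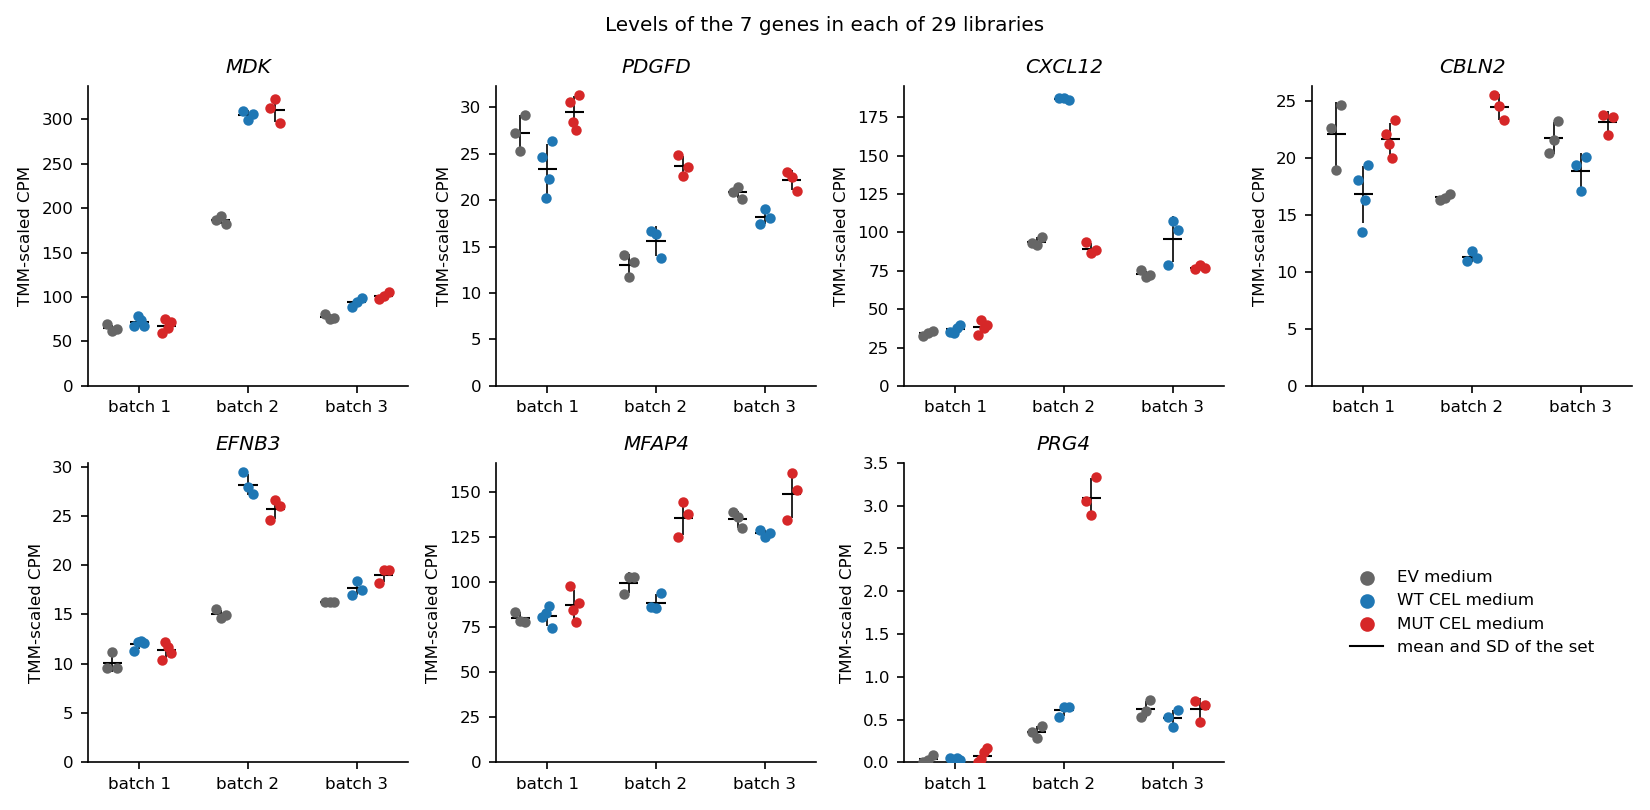
TMM-scaled CPM (linear axis from 0) of the 7 genes in each of 29 libraries, by batch and medium, with 1 point per library and the mean and SD of each set of 3 or 4 libraries as lines. The 3 MUT libraries of batch 2 stand highest for PRG4, at 2.89 to 3.34 CPM, and the 3 WT libraries of batch 2 stand highest for CXCL12, at 186 to 187 CPM.

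PRG4 was nearly silent except in the batch 2 cells given MUT medium. In batch 2 its level was 3.06, 2.89 and 3.34 CPM in MUT medium, 0.530, 0.644 and 0.653 CPM in WT medium and 0.356, 0.290 and 0.431 CPM in EV medium. The 3 MUT libraries held 105, 109 and 132 counts, and the WT libraries 18, 22 and 22. In that batch the mean was 8.62 times the EV mean and 5.08 times the WT mean, a log2 fold change of 3.09 ± 0.19 (SE) against EV and 2.35 ± 0.18 against WT, and no MUT library overlapped the others. In batch 3 the levels were 0.716, 0.478 and 0.675 CPM in MUT, 0.527, 0.414 and 0.607 CPM in WT and 0.534, 0.603 and 0.730 CPM in EV medium, which overlapped in every comparison. In batch 1 PRG4 had 0 to 6 counts in each of 11 libraries, so it was too low to be fitted in that batch alone. PRG4 overlaps TPR, an abundant gene on the opposite strand, and whether the counting used strand is not stated. In batch 2 TPR averaged 269 CPM (262 to 275) in MUT, 247 CPM (237 to 254) in WT and 286 CPM (279.6 to 291) in EV medium, so MUT lay above WT and below EV. In batch 1 TPR averaged 325 to 337 CPM. Its part in the PRG4 counts was not tested.

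CXCL12 was highest in WT medium in batches 2 and 3, while in batch 1 the MUT mean was highest and the media overlapped. Batch 2 gave 187, 187 and 186 CPM in WT, 93.0, 92.0 and 97.2 CPM in EV and 93.4, 86.3 and 88.3 CPM in MUT medium. The WT libraries were 1.99 times the EV mean, a log2 fold change of 0.99 ± 0.04 (SE), with no overlap. Batch 3 gave 78.8, 107 and 102 CPM in WT, 75.3, 71.2 and 72.2 CPM in EV and 76.2, 78.4 and 76.6 CPM in MUT medium. There the lowest WT library, at 78.8 CPM, lay just above the highest MUT library, at 78.4 CPM. In batch 1 the levels were 34.9, 34.7, 38.0 and 39.6 CPM in WT, 32.6, 34.4 and 35.7 CPM in EV and 33.1 to 43.2 CPM in the 4 MUT libraries, with means of 36.8, 34.2 and 38.4 CPM, and all 3 media overlapped. Over all batches CXCL12 was 0.50 ± 0.11 higher in WT than EV medium and 0.42 ± 0.11 lower in MUT than WT medium on the log2 scale, and the difference between MUT and EV medium was 0.08 ± 0.11.

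CBLN2 had its lowest mean in WT medium in all 3 batches. Batch 2 gave 10.9, 11.8 and 11.2 CPM in WT, 16.3, 16.5 and 16.8 CPM in EV and 25.5, 24.6 and 23.3 CPM in MUT medium, and no pair of media overlapped. In batch 3 the values were 19.4, 17.1 and 20.1 CPM in WT, 20.4, 21.6 and 23.2 CPM in EV and 23.8, 22.0 and 23.6 CPM in MUT medium, so EV and MUT overlapped and both lay above WT. Batch 1 had 18.0, 13.5, 16.3 and 19.3 CPM in WT, 22.6, 18.9 and 24.6 CPM in EV and 22.1, 21.2, 20.0 and 23.3 CPM in MUT medium. There every MUT library lay above every WT library. The log2 fold change of MUT against WT was 0.34 ± 0.10 in batch 1, 1.12 ± 0.06 in batch 2 and 0.29 ± 0.08 in batch 3 (SE), and the fit over all batches gave 0.57 ± 0.09. Against EV, MUT differed by 0.57 ± 0.06 in batch 2, by -0.04 ± 0.11 in batch 1 and by 0.09 ± 0.08 in batch 3.

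PDGFD was higher in MUT than WT medium in each batch without overlap. Batch 1 gave 30.6, 28.4, 27.6 and 31.3 CPM in MUT, 24.6, 20.2, 22.2 and 26.4 CPM in WT and 27.2, 25.3 and 29.2 CPM in EV medium. Batch 2 gave 24.8, 22.6 and 23.5 CPM in MUT, 16.7, 16.4 and 13.8 CPM in WT and 14.1, 11.8 and 13.4 CPM in EV medium. The MUT mean of that batch was 1.81 times the EV mean, while WT and EV overlapped. Batch 3 gave 23.1, 22.5 and 21.0 CPM in MUT, 17.5, 19.1 and 18.1 CPM in WT and 20.9, 21.5 and 20.2 CPM in EV medium, with WT below EV and MUT overlapping EV. The log2 fold change of MUT against WT was 0.31 ± 0.08, 0.61 ± 0.08 and 0.28 ± 0.06 (SE) in batches 1, 2 and 3. WT against EV was -0.22 ± 0.08 in batch 1, 0.25 ± 0.08 in batch 2 and -0.19 ± 0.06 in batch 3, so its sign differed between batches.

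MFAP4 also had its highest mean in MUT medium in each batch. Batch 2 gave 125, 144 and 138 CPM in MUT, 86.3, 85.4 and 93.9 CPM in WT and 93.4, 103 and 103 CPM in EV medium, with MUT above both. Batch 3 gave 134, 161 and 151 CPM in MUT, 129, 125 and 127 CPM in WT and 139, 136 and 129.8 CPM in EV medium. There MUT lay above WT but overlapped EV. Batch 1 gave 97.9, 84.5, 78.0 and 88.6 CPM in MUT, 80.5, 83.1, 86.6 and 74.3 CPM in WT and 83.6, 78.5 and 77.9 CPM in EV medium, and all media overlapped. The log2 fold change of MUT against WT was 0.08 ± 0.06, 0.62 ± 0.06 and 0.22 ± 0.06 (SE) in batches 1, 2 and 3. MFAP4 overlaps the end of MAPK7 on the opposite strand, whose mean in batch 2 was 38.4 CPM in MUT, 37.2 in WT and 34.8 in EV medium.

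MDK and EFNB3 were higher with either CEL medium than with EV medium in batches 2 and 3. MDK was 313, 323 and 295 CPM in MUT, 309, 299 and 306 CPM in WT and 187, 191 and 182 CPM in EV medium of batch 2. In batch 3 it was 97.2, 101 and 105 CPM in MUT, 88.2, 94.7 and 98.7 CPM in WT and 81.2, 75.3 and 76.0 CPM in EV medium. WT and MUT overlapped in both batches, and EV lay below both. In batch 1 MDK was 59.4, 75.5, 64.8 and 71.4 CPM in MUT, 67.2, 79.0, 74.6 and 67.0 CPM in WT and 69.1, 62.2 and 64.1 CPM in EV medium, and all media overlapped. The log2 fold change of MDK in MUT against EV was 0.74 ± 0.04 (SE) in batch 2 and 0.38 ± 0.06 in batch 3, and 0.04 ± 0.08 in batch 1.

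EFNB3 differed from MDK in batch 2 in that WT lay above MUT. Batch 2 gave 29.4, 27.9 and 27.2 CPM in WT, 24.6, 26.6 and 26.0 CPM in MUT and 15.5, 14.6 and 14.9 CPM in EV medium. No pair of media overlapped in that batch. Batch 3 gave 17.0, 18.4 and 17.5 CPM in WT, 18.2, 19.5 and 19.5 CPM in MUT and 16.2, 16.3 and 16.3 CPM in EV medium. Batch 1 gave 11.3, 12.2, 12.3 and 12.1 CPM in WT, 10.4, 12.3, 11.7 and 11.1 CPM in MUT and 9.58, 11.2 and 9.57 CPM in EV medium. WT lay above EV in every batch. The log2 fold change of WT against EV was 0.24 ± 0.08, 0.91 ± 0.06 and 0.12 ± 0.06 (SE) in batches 1, 2 and 3.

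The number of the 7 genes whose libraries did not overlap between media differed by batch. For MUT against EV it was 0, 6 and 3 of 7 in batches 1, 2 and 3, where 17%, 52.8% and 25% of all entries tested did not overlap in either direction. For MUT against WT it was 2, 6 and 4 of 7, beside 10.2%, 45.3% and 20.3% of all entries. For WT against EV it was 1, 5 and 6 of 7, beside 12%, 48.4% and 10.2%. In the fit over all batches edgeR's quasi-likelihood test called 5.2% of entries for MUT against EV, 0.884% for MUT against WT and 0.315% for WT against EV at an adjusted p under 0.05. The genes were picked with these contrasts in view, so their own counts are read only as a description. The plot of differences between media by batch shows that batch 2 gave the difference of largest size for 6 of the 7 genes in MUT against EV, CXCL12 being the exception.

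**Figure D2:**
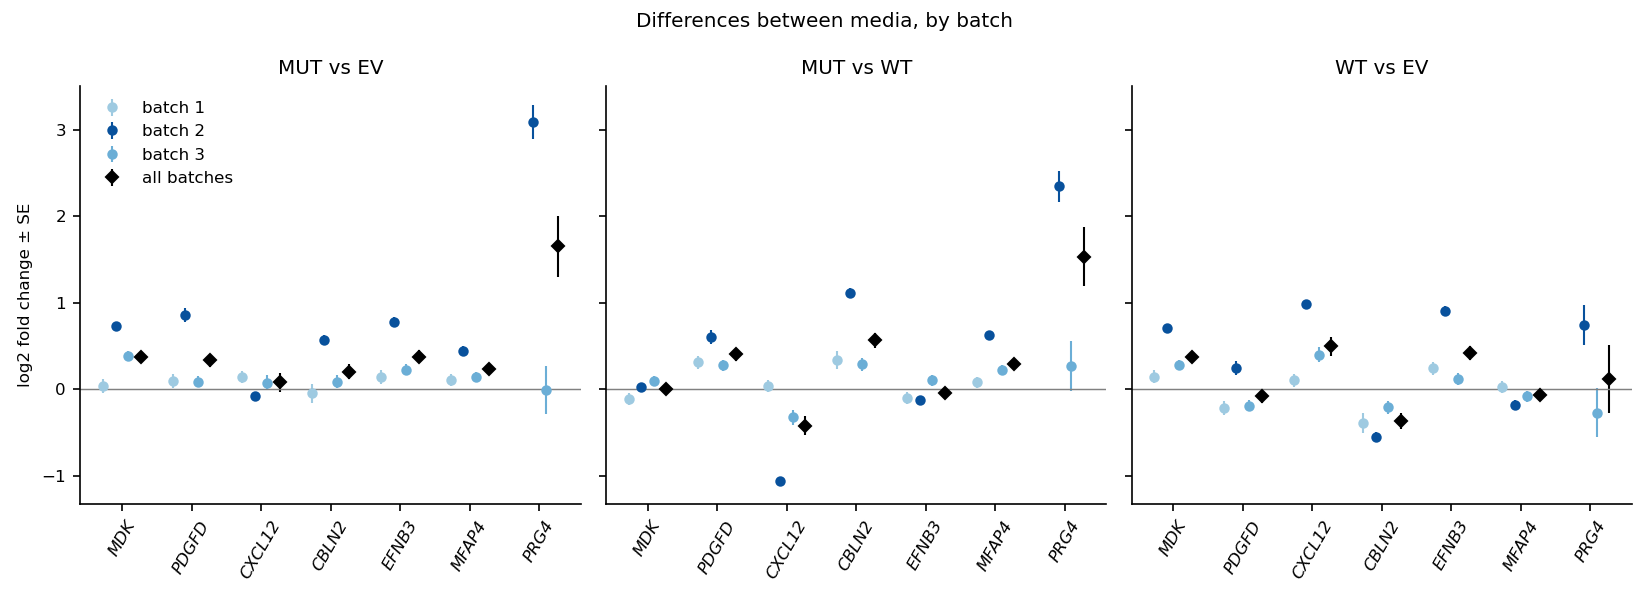
Log2 fold change ± SE between media for the 7 genes in each of 3 batches fitted alone and in the fit over all batches, with 1 panel per comparison. PRG4, which could not be fitted in batch 1 alone, is 3.09 higher in MUT than EV medium in batch 2 and 0.00 different in batch 3.

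Batch itself was not used to choose the genes, and differences between batches were tested. For MUT against EV most of these genes differed most in batch 2, and such differences enter the batch averages. These tests are therefore not fully independent of how the genes were chosen. With medium in the model, edgeR's quasi-likelihood test called 7 of 7 genes between batches 2 and 1, 6 of 7 between batches 3 and 1 and 7 of 7 between batches 3 and 2, beside 66.7%, 56.6% and 44.5% of all entries tested. MDK and CXCL12 rose from batch 1 to batch 2. The adjusted p by edgeR was 2.4e-20 for MDK, with a log2 fold change of 1.95 ± 0.07 (SE), and 1.6e-13 for CXCL12, with 1.70 ± 0.11. EFNB3 was 1.02 ± 0.07 higher, MFAP4 0.37 ± 0.06 higher and PRG4 4.39 ± 0.41 higher in batch 2 than in batch 1. PDGFD fell by 0.63 ± 0.08 and CBLN2 fell by 0.24 ± 0.09 on the same scale. The call for CBLN2 was lost without EV medium, without WT medium, with 1 summed profile per batch and medium and with a replicate block (adjusted p by edgeR 0.24, 0.33, 0.23 and 0.11). The fall of PDGFD from batch 1 to batch 3, by 0.37 ± 0.08, was not called with summed profiles (adjusted p by edgeR 0.079). CBLN2 between batches 3 and 1, at 0.09 ± 0.09, was the difference that was not called (adjusted p by edgeR 0.41).

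Between batches 3 and 2 the direction depended on the medium for some genes. MDK fell by 1.54 ± 0.07 and CXCL12 fell by 0.54 ± 0.11, while PDGFD, CBLN2 and MFAP4 rose by 0.25 ± 0.08, 0.33 ± 0.09 and 0.36 ± 0.06 (log2, SE). EFNB3 fell by 0.34 ± 0.08 and PRG4 fell by 0.78 ± 0.31. In EV libraries alone the same batch difference was 0.12 for EFNB3 and 0.78 for PRG4, both of the opposite sign and not called, and without MUT medium it was 0.24 for PRG4. The PRG4 call was also lost with DESeq2 (adjusted p 0.086), voom (0.17), no filter (0.085) and only the 2 batches compared (0.070). With 1 summed profile per batch and medium, 1 of the 7 genes was called between batches 3 and 2, without WT medium 3 were, and without EV medium 5 were, the calls for PDGFD (adjusted p by edgeR 0.61) and CBLN2 (0.072) being lost. Leaving out any of the 3 MUT libraries of batch 2 or of batch 3, or WT library 2 of batch 3, left 6 of 7 called, because the call for PRG4 was lost. The share of all entries called is not given for these alternatives, so their counts are not read as particular to the 7 genes.

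**Figure D3:**
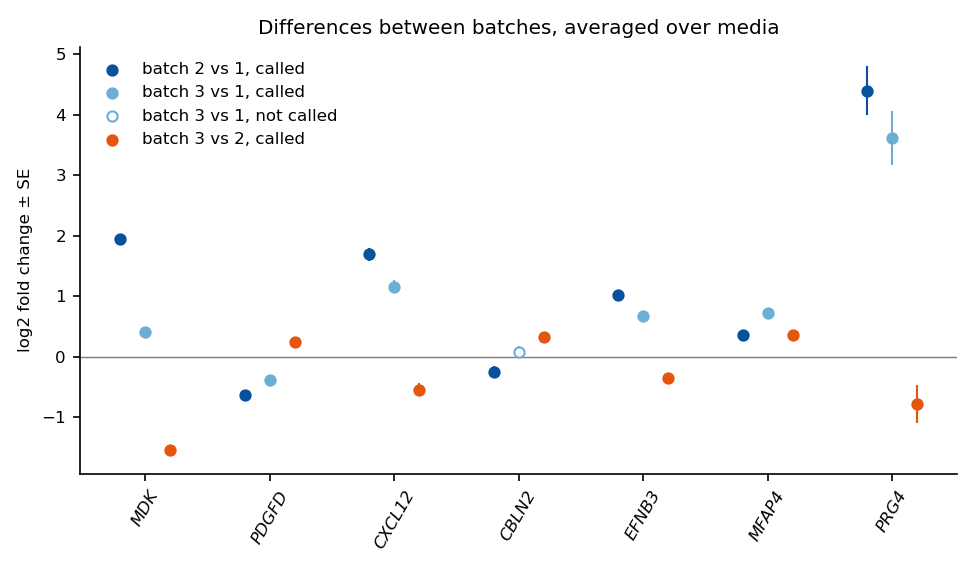
Log2 fold change ± SE between batches for the 7 genes in a model with medium, with filled points for differences called at an adjusted p under 0.05 and an open point for the CBLN2 difference between batches 3 and 1. MDK rises by 1.95 from batch 1 to batch 2 and falls by 1.54 from batch 2 to batch 3.

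Batch accounted for most of the variation of 6 of the 7 genes. Its share of the sum of squares of log2 CPM was 93.1% for MDK, 84.8% for CXCL12, 76.4% for PRG4, 74.5% for EFNB3, 74.4% for MFAP4 and 54.7% for PDGFD, beside a median of 46.7% over all entries tested. CBLN2 was the exception, with 17.8% for batch and 51.6% for medium. The share left among libraries of the same batch and medium was 0.763% to 9.90% for the 7 genes, beside a median of 22.5% over all entries. Differences between media were used in choosing the genes. That choice favours large medium shares and a small share left among libraries, so the contrast with 22.5% is not read as a result.

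**Figure D4:**
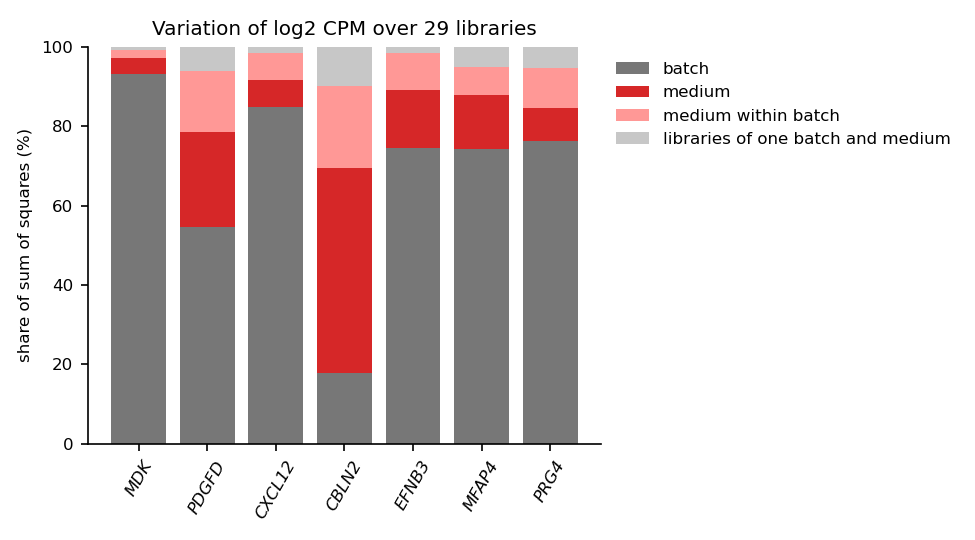
Share of the sum of squares of log2 CPM over 29 libraries (stacked bars, 0 to 100%) that falls to batch, medium, medium within batch, and libraries of the same batch and medium. Batch takes 93.1% for MDK and 17.8% for CBLN2.

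Some of the genes varied together within batches. After each batch's mean was removed, Pearson's r over 29 libraries was 0.90 between MDK and EFNB3, 0.80 between PDGFD and PRG4 and 0.73 between CBLN2 and MFAP4. CXCL12 ran against CBLN2 (r = -0.72) and MFAP4 (r = -0.64). The libraries share batch and medium, so these values describe the design as well as the genes. Among 12302 genes the most alike were EFNB3 and FBXL19 for MDK (r 0.90 for both), SERPINI1 and ARG2 for PDGFD (0.91 for both), LRP4 and TMEM132D for CXCL12 (0.91 for both) and GGH and CD9 for CBLN2 (0.88 and 0.87). For EFNB3 they were ISL1, a transcription factor of islet cells, and SPRY4 (0.94 and 0.93), for MFAP4 RXRG and TMSB4X (0.83 and 0.81) and for PRG4 PCBP2 and TIAL1 (0.87 and 0.86). Within batch 2 alone r of these pairs was 0.922 to 0.996 and within batch 1 it was 0.09 to 0.88. Within batch 3 it was -0.39 to 0.92, highest for MDK and EFNB3. The lowest was that of PRG4 and PCBP2 in batch 3, while PDGFD and SERPINI1 had 0.88, 0.98 and 0.81 in batches 1, 2 and 3.

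Most listed receptors, relatives and binding partners of the 7 genes did not pass the test between media. Of 95 listed partner genes 71 passed the low-count filter, and edgeR's quasi-likelihood test called 6 for MUT against EV (3 higher, 3 lower), 2 for MUT against WT (1 higher, 1 lower) and 0 for WT against EV. These are 8.45%, 2.82% and 0% of the tested partners, beside 5.2%, 0.884% and 0.315% of all entries. Because the lists were drawn up with earlier results of these data known, these shares are a description. Their median log2 fold changes were 0.03, 0.04 and 0.00, beside 0.00 over all entries in each comparison. For WT against EV 11 of the 71 had an unadjusted p under 0.05 by edgeR, beside 2800 of all 21259 entries. DESeq2 called 3 of the partners and limma voom with quality weights called 0, and the shares of all entries are not given for these 2 fits.

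Several classical receptors were too low to test. CXCR4 and ACKR3, the receptors of CXCL12, reached at most 0.147 and 0.0304 CPM in any library, and PDGFRA and PDGFRB reached at most 0.128 and 0.218 CPM. MDK's relative PTN reached 0.0578 CPM. These highest values are CPM before the filter, without the TMM adjustment. Other members of these lists were well expressed. LRP1, a midkine receptor, averaged 164 CPM, NEO1 299 CPM and CBLN1, a relative of CBLN2, 93.3 CPM. DPP4, a protease that cleaves CXCL12, averaged 90.5 CPM, and its log2 fold change of MUT against EV was -0.13 ± 0.12 (SE), which was not called. By batch it was 0.05, -0.60 and -0.02 in batches 1, 2 and 3, a difference between batches with an adjusted p by edgeR of 4.9e-08 for the interaction.

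The called partners stood in 2 of the lists. In MUT against EV, 4 of 13 tested genes of the midkine list were called, beside 6 of all 71 partners and 5.2% of all entries. LTK was among them, and whether it binds midkine was not examined. No enrichment was tested. PTPRZ1, a receptor phosphatase, rose by 0.21 ± 0.06 and ITGB1, the integrin β1 subunit, rose by 0.16 ± 0.05 (log2, SE), with adjusted p by edgeR of 0.041 and 0.043. The receptor tyrosine kinase LTK fell by 0.33 ± 0.08 and the integrin subunit ITGA6 fell by 0.28 ± 0.08, with adjusted p by edgeR of 0.026 and 0.036. Of 16 tested ephrins and Eph receptors 2 were called, EFNA4, which fell by 0.45 ± 0.13, and EPHB2, which rose by 0.24 ± 0.07 (adjusted p by edgeR 0.039 and 0.049). In MUT against WT, LTK fell by 0.33 ± 0.08 and the syndecan SDC2 rose by 0.25 ± 0.06 (adjusted p by edgeR 0.032 and 0.044). The partner lists were drawn up with earlier results of these data known, so none of these calls is taken as independent. LTK in particular was known from those results to differ.

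For MUT against EV the called partners differed most in batch 2. In that batch EPHB2 averaged 23.3 ± 1.8 CPM in MUT and 13.9 ± 0.2 in EV medium (SD, n = 3 each), whereas in batch 3 it averaged 29.5 ± 0.5 in MUT and 31.3 ± 0.1 in EV. EFNA4 averaged 4.09 ± 0.14 CPM in MUT and 9.09 ± 0.69 in EV medium of batch 2, and 8.87 ± 0.59 and 9.50 ± 0.43 in batch 3. The mean of LTK was lower in MUT than in EV and WT medium in all 3 batches, at 6.42, 7.12 and 7.77 CPM in batch 1, 3.71, 5.71 and 4.92 CPM in batch 2 and 2.96, 3.49 and 3.72 CPM in batch 3. Without batch 2 the log2 fold change of LTK in MUT against WT was -0.30 (adjusted p by edgeR 0.052), close to the value over all batches, and that of SDC2 was 0.09 (0.43). For MUT against EV it was -0.19 for LTK, 0.13 for PTPRZ1, -0.15 for ITGA6, 0.05 for ITGB1, -0.19 for EFNA4 and 0.02 for EPHB2. Without batch 2, 0 partner genes were called for MUT against EV, and leaving out any 1 of the 3 EV or 3 MUT libraries of batch 2 also left 0. Voom with quality weights, the summed profiles and a fit of only EV and MUT libraries each called 0 as well.

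**Figure D5:**
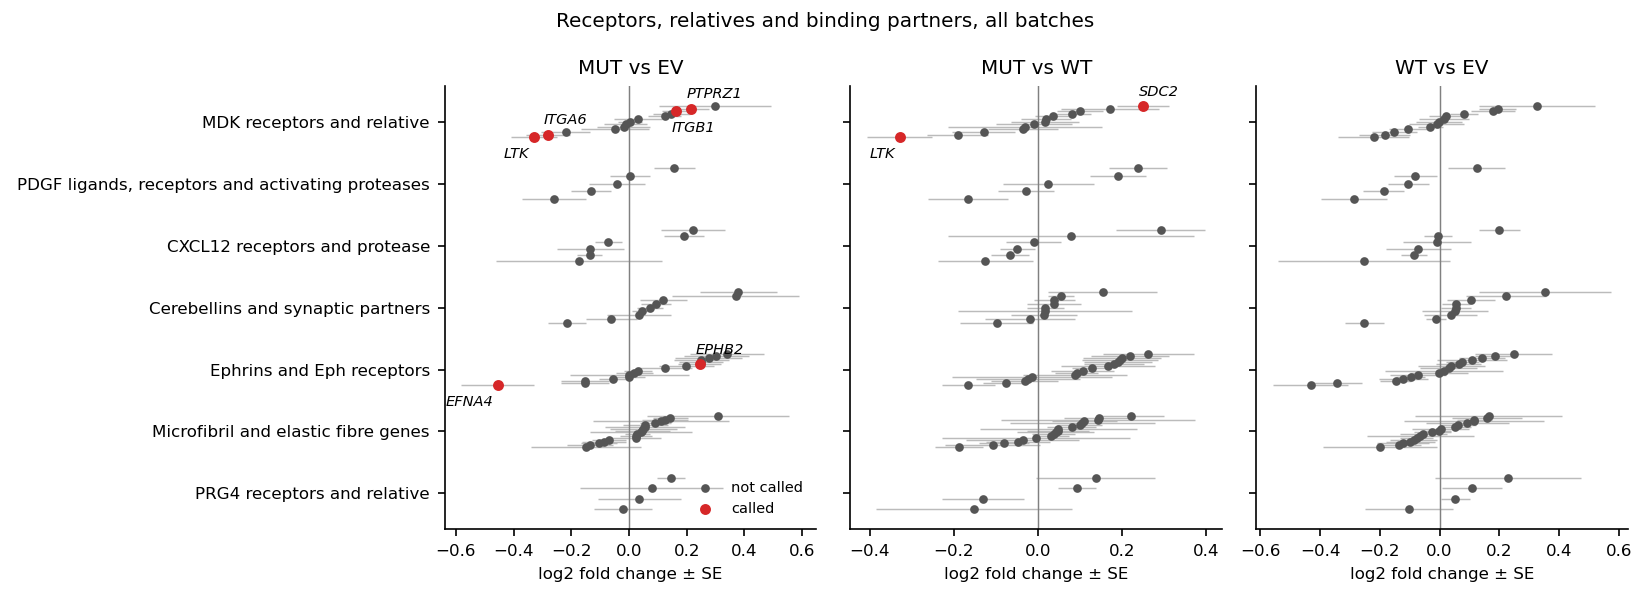
Log2 fold change ± SE of the 71 tested partner genes, by list and comparison, in the fit over all batches, with called genes in red and named. Called genes are 6 in MUT against EV, 2 in MUT against WT and 0 in WT against EV, and the called change of greatest size is the fall of EFNA4 by 0.45.

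Summed levels of markers of other cells differed between media in batch 2, and 1 or 2 genes made up most of each sum. For the mesenchymal markers these were TAGLN and COL1A1, with means of 5.70 and 3.56 CPM over all libraries, and the summed level was 6.13 to 7.79 CPM in EV, 10.1 to 12.4 CPM in WT and 10.7 to 11.7 CPM in MUT medium of batch 2, and 8.46 to 14.5 CPM over batch 1. The summed HEK293 markers were 25.1 to 28.5 CPM in MUT medium of batch 2 and 34.7 to 37.0 CPM in the other media of that batch. The summed ductal markers were 38.6 to 43.9 CPM in MUT and 53.8 to 61.4 CPM in the other media of batch 2, and the summed endothelial markers 2.21 to 3.03 CPM with either CEL medium and 4.75 to 4.92 CPM with EV medium. The summed β-cell markers differed as well, at 21741 to 22971 CPM in MUT, 26445 to 27465 in WT and 25474 to 27746 in EV medium of batch 2. In batch 3 they were 28517 to 32305 CPM in MUT, 24242 to 31036 in WT and 25299 to 26851 in EV medium. The share of mitochondrial counts was 3.99% to 4.05% in WT, 4.80% to 5.25% in EV and 4.89% to 5.41% in MUT medium of batch 2. Their part in the differences of the 7 genes was not tested.

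By GENCODE release 29 on GRCh38, MDK lies at chr11:46380756-46383837, PDGFD at chr11:103907186-104164379, CXCL12 at chr10:44370165-44386493, CBLN2 at chr18:72536680-72638521, EFNB3 at chr17:7705202-7711378, MFAP4 at chr17:19383442-19387240 and PRG4 at chr1:186296279-186314562. The build behind the counts is not stated, and entries were matched by Ensembl identifier.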

How the data were processed

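Polyadenylated RNA of 29 EndoC-βH1 libraries was sequenced from a TruSeq Stranded mRNA kit, per the labels' protocols. The authors deposited a table of estimated counts by Ensembl identifier, made with fastp and kallisto per the submitters' processing notes. No source used here gives their versions, the genome build, the annotation or the strand setting. The deposited values were rounded, filtered with filterByExpr and scaled by TMM. edgeR 4.0.16 (limma 3.58.1, R 4.3.3) was fitted with batch and medium over all 29 libraries, leaving 24 residual degrees of freedom, with Benjamini-Hochberg adjustment over 21259 entries and a threshold of 0.05. Robust estimation was switched on only after the fits with and without it had both been seen, because it gave the call counts already described for these data. The fit without it is given among the alternatives. The SE is the size of the log2 fold change divided by the square root of F. The procedure was tested on simulated data. Entries without a symbol held 2.69% of the counts.

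The 7 genes, the partner lists and the markers were chosen with earlier results of these data known. Named genes were the 7, every partner called in any media comparison, otherwise up to 3 partners per gene with the highest mean CPM, and per gene the 2 most alike genes by batch-centred log2 CPM (prior count 2, mean of at least 5 CPM), with CEL, INS and the cell markers. Some genes this rule allows are not reported here. PTN, the receptors below the filter and the overlapping genes TPR and MAPK7 were named after their values were seen. In batch 1, EV library 2 carries a label number unlike its neighbours' and was used as labelled. Alternatives were DESeq2 1.42.0 and its size factors, library size alone, no or a stricter filter, voom, blocks, summed profiles, and leaving out batches, media or libraries. Counts from libraries of the same number did not deviate together.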

Additional observations from a re-analysis of the deposited data

Results flagged for a closer look

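EFNB3 in WT library 1 of batch 1, at 11.27 CPM, lay apart below the other 3 WT libraries of that batch. Of 35 groups of libraries examined 1 held such a library. The groups were each gene's libraries of a medium over all batches, and its WT and MUT libraries of batch 1. Sets of 3 libraries were too small to be examined. Groups over all batches also spread by batch, so a single library can hardly stand apart in them and no rate by chance is given.

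The difference between media depended on batch for 6 of the called partner genes, by edgeR's test of the interaction of medium and batch. For MUT against EV the adjusted p was 0.0372 for PTPRZ1, 0.00114 for ITGA6, 1.24e-05 for ITGB1, 0.000174 for EFNA4 and 1.13e-08 for EPHB2. For MUT against WT it was 6.69e-06 for SDC2. LTK, also called, had 0.0503 for MUT against EV and 0.798 for MUT against WT. Dependence on batch was not particular to called genes. For MUT against EV it was also under the threshold for the uncalled ALK, SDC1, CBLN1 and NLGN2, and not for SDC4 and NRXN2. The share of all entries with such dependence was not counted, so the values for these 6 genes are not read as particular to the partners.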

How the results depend on the processing

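The counts of called partner genes were unstable. Against 6 for MUT against EV, 2 for MUT against WT and 0 for WT against EV, scaling by library size alone gave 3, 1 and 0, no filter gave 1, 0 and 0, voom, the summed profiles and no batch term each gave 0, 0 and 0, and DESeq2 gave 12 for MUT against EV and 3 for WT against EV. edgeR without robust estimation, an alternative added after seeing the data, gave 7, 2 and 0, the 6 and 2 calls among them. Batch 2 alone gave 46, 32 and 44, and leaving it out gave 0, 7 and 2. In batch 2 the libraries of 52.8%, 45.3% and 48.4% of all entries did not overlap in these comparisons. The share of all entries called is not given for the alternatives, so these counts are not read as particular to the partners. Batch 1 alone gave 1 for MUT against EV and 1 for MUT against WT, and leaving it out gave 0 for MUT against WT. Batch 3 alone gave 0 for MUT against EV, and leaving it out gave 23, 5 and 3. A fit of only the 2 groups compared gave 0 for MUT against EV and 4 for WT against EV. Leaving out each library gave 0 to 12, 0 to 2 and 0 to 1.

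Same-numbered libraries did not deviate together (r from -0.058 to 0.089 over 28 pairs), so no pairing by number was seen. Whether such libraries were handled together cannot be told from these values. The replicate block gave 0 partner calls for MUT against EV and 0 for MUT against WT.

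Of the batch differences, the count between batches 3 and 2 was 1 with summed profiles and 3 without WT medium, against 7. The share of all entries called is not given for these fits either. EFNB3 was 0.1168 and PRG4 0.7811 in EV libraries only, and PRG4 0.2437 without MUT medium. In batch 3 alone MUT against EV was -0.001114 for PRG4, -0.01273 for PTPRZ1, -0.07873 for ITGB1 and -0.08146 for EPHB2, and MUT against WT was -0.07006 for SDC2. In batch 1 alone ITGA6 was 0.0672 for MUT against EV. The cause was not tested. PRG4 in batch 1, at 0 to 6 counts, limits any statement on that batch.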
